A study of Homo sapiens with 6 samples.

Results

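Neuronal genes whose transcripts carry cryptic exons or cryptic polyadenylation sites that TDP-43 normally represses were followed across all R-loop peak lists of the series. They are STMN2, UNC13A, UNC13B, ELAVL3, KALRN, SYT7, CELF5, CAMK2B, AGRN and CYFIP2, 10 of the 20033 protein-coding genes in the RefSeq table. They were listed by name for that splicing behaviour, but with earlier results of these data known. Peaks were collected within each gene's RefSeq span plus 2 kb on either side and placed along the gene: near the ends (within 2 kb of either end) or in the body (more than 2 kb from both). The lists come from DNA-RNA hybrid immunoprecipitation and sequencing (DRIP-seq) of SH-SY5Y, an established human neuroblastoma line. The cells had received a lentiviral vector that expresses a short hairpin RNA from a U6 promoter, either shT2 (3 samples) or shNC3 (3 samples), and both were selected with puromycin. The series concerns stable TDP-43 knockdown, and shT2 is taken for the knockdown hairpin and shNC3 for its negative control on the strength of their names, since no label states it. Each hairpin stands for 1 selected population, and because nothing states separate infections for the replicates, the p-values measure the spread between these samples alone.

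An R-loop forms when RNA pairs with its DNA template and leaves the other DNA strand single, most often behind RNA polymerase at the start and the end of active genes. TDP-43 is a nuclear RNA-binding protein that binds UG-rich RNA and keeps cryptic exons out of mature transcripts. In motor neuron disease and frontotemporal dementia it leaves the nucleus, and cryptic exons then truncate or destabilise mRNAs such as those of STMN2, a microtubule regulator needed for axon repair, and UNC13A, a priming factor for synaptic vesicles. Splicing was not measured here. No exon annotation was used either, so peaks are placed along the whole gene and not against the cryptic exons.

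The lists held 49005, 50896 and 50750 peaks on the standard chromosomes in shT2 replicates 1 to 3, and 45320, 42651 and 44951 in shNC3 replicates 1 to 3. The depth recovered from the peak statistics was 3.08 to 3.46 fragments per base in shT2 and 1.65 to 1.79 in shNC3, so depth moved with the hairpin. Its part in each result was not tested beyond an equal-depth setting that kept only peaks strong enough for the shallowest list. Peaks kept there stayed at full width, so that setting cannot show how depth bears on peak width. The total length under peaks was 72.6 to 78.1 Mb in shT2 and 62.8 to 70.4 Mb in shNC3. Each gene's length under peaks was therefore scaled to the mean total of the 6 lists and is given as scaled kb. TARDBP, the gene of TDP-43, had 9.36, 8.69 and 7.64 scaled kb in shT2, against 11.8, 11.9 and 10.7 scaled kb in shNC3 (log2 difference -0.40, limma adjusted p = 0.00683). This length is not a measure of TDP-43 RNA or protein. Unscaled, the TARDBP means were 3509 bp in shT2 and 3600 bp in shNC3 near the start. They were 4917 and 5195 bp in the body, and 606 and 2044 bp near the end. MASP2 overlaps that end, and its length under peaks came from the same peaks. Its lower value in shT2 (log2 difference -1.86, limma adjusted p = 0.0172) is therefore not a separate result.

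Markers of the noradrenergic state, the neuron-like state of neuroblastoma cells, were checked against the labelled cell type. Of 12 such genes, 11 had a peak in some sample; TH, the rate-limiting enzyme of catecholamine synthesis, had none. Over the span plus 2 kb, 24.1% of all 11769 genes tested were called higher in shT2 and 27.2% lower. Of the 10 noradrenergic markers tested, 4 were higher in shT2, CHGA and ISL1 among them, 1 was lower and 5 did not pass. The summed length of the list was 110 to 119 scaled kb in shT2 and 103 to 112 scaled kb in shNC3. Of 12 markers of the mesenchymal state, 9 were tested by limma, and 6 were lower in shT2 while none was higher. Of these 6, 3 had no peak in shT2 and passed the filter through shNC3 alone. At an unadjusted p below 0.05, FN1 was also lower (log2 difference -0.58, adjusted p = 0.0721) and still none was higher. Their summed length was 19.8 to 22.2 scaled kb in shT2, against 56.2 to 59.1 scaled kb in shNC3. COL1A1, a collagen chain, had 0.322, 0 and 0.324 scaled kb in shT2, against 13.5, 15.0 and 14.3 scaled kb in shNC3. PRRX1, a mesenchymal transcription factor, had no peak in any shT2 sample, while COL1A2 and SNAI2 had none in either hairpin. Some of these markers, mostly mesenchymal ones, moved with the hairpin, as most of the genes described below did. The part of the markers in those results was not tested. In bulk samples, a change in the share of cells with an R-loop and a change within each cell cannot be told apart.

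Over the span plus 2 kb, 8 of the 10 genes had peaks in all 6 samples and could be tested. STMN2, UNC13A, ELAVL3 and CELF5 were covered over a longer length in shT2, and KALRN, CAMK2B and AGRN over a shorter one. CYFIP2 did not pass the test. UNC13B and SYT7 had a single short peak in 1 sample each and did not meet the filter for the test. Thus 7 of the 8 tested were called at a limma adjusted p below 0.05, against 51.3% of all 11769 genes tested. The 4 higher genes stand against 24.1% of all genes called higher, and the 3 lower genes against 27.2% called lower. The samples of the hairpins did not overlap for the same 7 genes, which was also so for 65.0% of all genes. With so many of all genes called or not overlapping, these counts alone do not set the members apart. Their median log2 difference was 0.30, beside -0.08 over all genes. Without scaling, the median of all genes moved to 0.06 and the split of all calls to 3179 higher and 2044 lower, beside 2842 higher and 3200 lower with scaling; the 4 higher and 3 lower calls of the members stayed 4 and 3. They were also 4 and 3 at equal depth, where the kept peaks stayed at full width.

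**Figure D1:**
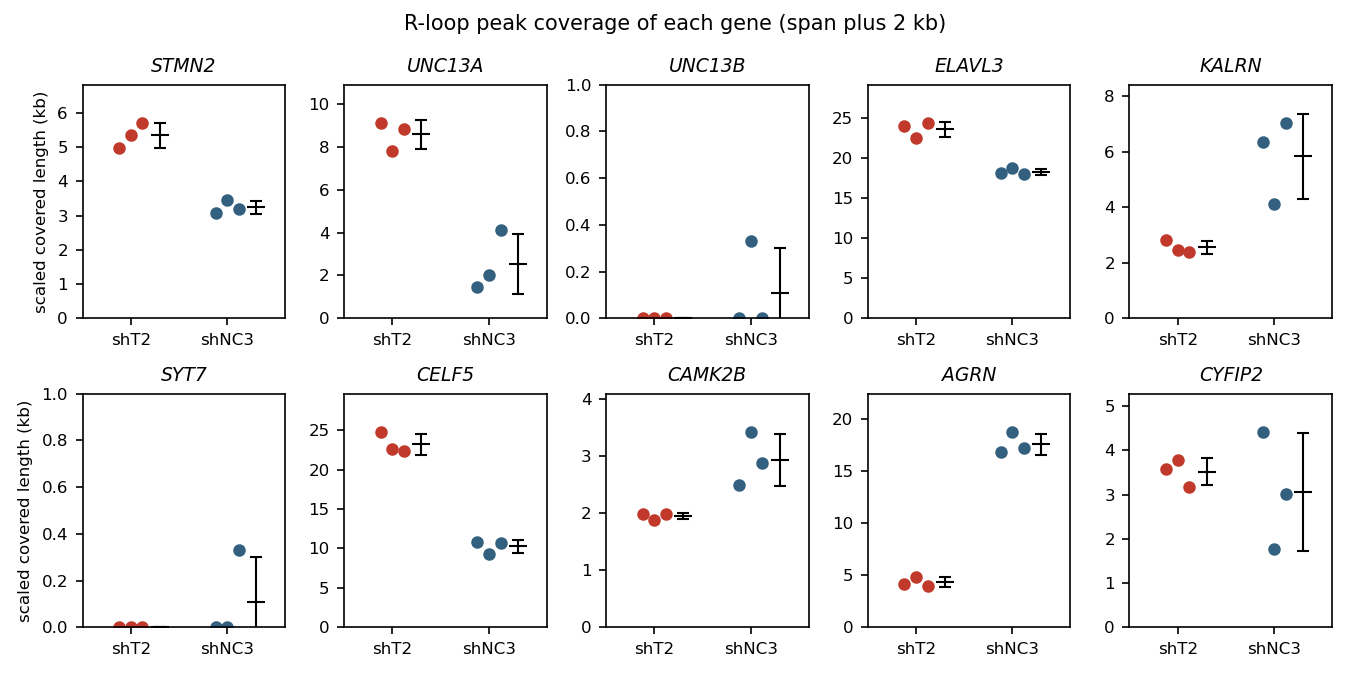
Length under R-loop peaks (scaled kb, linear axis from 0, a scale of its own for each gene) within the span plus 2 kb of the 10 genes; points are the 3 samples of each hairpin, shT2 in red and shNC3 in blue, and the bars give mean ± SD. The shT2 points lie above all shNC3 points for STMN2, UNC13A, ELAVL3 and CELF5 and below them for KALRN, CAMK2B and AGRN, while UNC13B and SYT7 have 1 shNC3 sample each above 0.

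Per length of gene, the order of the levels was not the same in the hairpins. In shT2, peaks covered 73.8% ± 0.10 of the ELAVL3 window, 32.0% ± 1.84 of CELF5, 11.5% ± 1.66 of AGRN, 9.90% ± 0.46 of UNC13A, 9.53% ± 0.70 of STMN2, 2.78% ± 0.34 of CYFIP2, 1.82% ± 0.02 of CAMK2B and 0.39% ± 0.04 of KALRN (unscaled, SD, n = 3). AGRN, UNC13A and STMN2 are next to each other in that order, and the samples of UNC13A overlapped those of both others. In shNC3, the values were 51.3% ± 2.22 for ELAVL3, 41.5% ± 0.20 for AGRN, 12.8% ± 1.71 for CELF5, 5.18% for STMN2 in each sample, 2.62% ± 1.49 for UNC13A, 2.44% ± 0.24 for CAMK2B, 2.21% ± 1.06 for CYFIP2 and 0.80% ± 0.24 for KALRN (SD, n = 3). UNC13A, CAMK2B and CYFIP2 overlapped one another there. AGRN held the second place in shNC3 and the third in shT2.

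The promoters bear on the question of place, since R-loops are best known at GC-rich starts. The RefSeq promoter table (GRCh38.p14, from 250 bases before to 50 after a start) held 11 promoters for 6 of the genes; STMN2, ELAVL3, SYT7 and AGRN are named only. The 4 with the highest GC content are shown, as the promoters most like the usual R-loop site, written along transcription with the first 50 transcribed bases in capitals. They lie at chr19:17688305-17688604 (minus strand, UNC13A), chr19:3224411-3224710 (plus strand, CELF5), chr7:44325545-44325844 (minus strand, CAMK2B) and chr5:157265873-157266172 (plus strand, CYFIP2).
UNC13A: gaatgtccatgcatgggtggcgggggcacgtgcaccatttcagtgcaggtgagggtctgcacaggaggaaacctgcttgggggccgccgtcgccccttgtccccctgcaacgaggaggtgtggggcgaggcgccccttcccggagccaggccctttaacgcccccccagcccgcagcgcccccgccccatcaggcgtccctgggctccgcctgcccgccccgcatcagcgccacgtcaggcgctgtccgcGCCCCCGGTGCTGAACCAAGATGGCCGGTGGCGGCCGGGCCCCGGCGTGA
CELF5: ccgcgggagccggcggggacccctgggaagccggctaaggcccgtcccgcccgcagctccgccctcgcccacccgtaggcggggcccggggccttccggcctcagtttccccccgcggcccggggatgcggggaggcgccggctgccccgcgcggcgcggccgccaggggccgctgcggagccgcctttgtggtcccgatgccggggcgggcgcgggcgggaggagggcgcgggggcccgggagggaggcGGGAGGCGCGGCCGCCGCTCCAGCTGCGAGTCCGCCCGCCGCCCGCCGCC
CAMK2B: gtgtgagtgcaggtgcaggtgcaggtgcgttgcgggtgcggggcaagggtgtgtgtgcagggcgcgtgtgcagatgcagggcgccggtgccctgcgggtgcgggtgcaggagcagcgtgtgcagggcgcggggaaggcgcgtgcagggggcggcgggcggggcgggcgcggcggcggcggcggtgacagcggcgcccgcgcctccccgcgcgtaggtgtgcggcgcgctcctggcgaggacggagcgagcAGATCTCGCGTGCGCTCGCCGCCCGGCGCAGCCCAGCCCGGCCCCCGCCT
CYFIP2: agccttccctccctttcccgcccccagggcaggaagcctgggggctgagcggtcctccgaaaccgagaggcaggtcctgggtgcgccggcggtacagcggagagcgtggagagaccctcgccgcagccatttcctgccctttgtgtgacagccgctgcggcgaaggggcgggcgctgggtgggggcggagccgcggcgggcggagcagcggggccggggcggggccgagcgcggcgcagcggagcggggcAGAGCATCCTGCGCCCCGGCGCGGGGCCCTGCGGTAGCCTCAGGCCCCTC
Their GC content was 73.0% for UNC13A, 84.7% for CELF5, 79.0% for CAMK2B and 76.7% for CYFIP2, which placed them at percentiles 86.4, 99.7, 96.3 and 93.1 of 35116 promoters. No peak of any sample touched the first 3, and a peak of shNC3 replicate 1 reached 144 bp of the CYFIP2 promoter. The other 7 promoters, 3 each of KALRN and UNC13B and 1 further promoter of CYFIP2, had no peak in any sample. Those of KALRN all lie inside the gene, with starts at 124094707, 124384828 and 124584658. None is at the start of its span, 124033369, around which all 6 lists held peaks. Among all promoters, 21.0 to 22.9% had a peak in the single shT2 lists and 22.2 to 24.9% in the single shNC3 lists. A peak in some sample was found at 32.2% of all promoters and at 57.8% of the 4773 with a GC content of at least 73.0%. The nearest peak edge to the CELF5 start was 0.96 to 1.57 kb away in shT2 and 1.68 to 3.08 kb away in shNC3. Each shT2 list held peaks on both sides of this promoter within the gene's window. No shNC3 list held one before the start within that window. For UNC13A the nearest peak edge was 20.0 to 30.4 kb away in shT2 and 8.48 to 31.7 kb away in shNC3, and for CAMK2B 47.9 kb away in every sample. The nucleic acids had been cut before the pulldown with BsrGI (TGTACA), EcoRI (GAATTC), HindIII (AAGCTT), SspI (AATATT) and XbaI (TCTAGA), palindromes that read alike on both strands and may share end letters where sites adjoin. None of these sites lies in the 4 promoters shown, while 22.6% of all promoters hold at least 1, each counted once. Cut sites outside the promoters were not analysed here, and a peak can extend over a whole cut fragment.

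STMN2 encodes stathmin-2, which binds tubulin and supports axon growth and repair (chromosome 8, 79611117 to 79666158, plus strand). It was covered over 4.97, 5.36 and 5.69 scaled kb in shT2, against 3.08, 3.46 and 3.19 scaled kb in shNC3. Every shT2 sample lay above every shNC3 sample, and the log2 difference was 0.64 (SE 0.10, limma adjusted p = 0.00144). The unscaled peaks show where the length was added. One peak at the start, 0.17 to 3.23 kb into the gene and 3061 bp wide, had identical edges in all 6 lists and was the only STMN2 peak in the shNC3 lists. The shT2 lists added 7 further regions between 4.18 and 23.8 kb, made of 13 peaks of 290 to 1118 bp with an enrichment of 2.4 to 6.3-fold in the authors' lists. Of those regions, the ones at 6.46 to 7.57 kb and at 9.65 to 10.6 kb were present in all 3 shT2 samples, 2 were in 2 of them, and 3 were in 1. Farther along, up to the end of the gene at 55.0 kb, no list held a peak.

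These added STMN2 peaks were weak. At equal depth 8 of the 13 remained, and 2 of them reached 5-fold enrichment. With peaks of at least 5-fold alone, the log2 difference over the span was 0.18 (limma adjusted p = 0.311) and that in the body 0.39 (adjusted p = 0.210), so the STMN2 call rests on peaks under 5-fold. A lncRNA, LOC105375916, overlaps the gene from position 79621132, so the regions from about 10 kb onward lie in both, and DRIP-seq of double-stranded DNA does not give the strand of the RNA. Among the 11768 other genes tested, the closest patterns over the 6 samples (Euclidean distance of log2 scaled length) were those of CEBPZOS at 0.215, SRRM1 at 0.239 and CTNNB1 at 0.244.

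UNC13A encodes a protein that readies synaptic vesicles for release (chromosome 19, 17601336 to 17688354, minus strand). It was covered over 9.08, 7.79 and 8.84 scaled kb in shT2, against 1.45, 2.01 and 4.10 scaled kb in shNC3. The groups were well apart, although shNC3 replicate 3 stood above the other shNC3 samples. The log2 difference was 1.68 (SE 0.29, limma adjusted p = 0.00268), and UNC13A remained called in all 15 alternative settings run. Its peaks were many and short, 13, 8 and 16 in shT2 and 4, 4 and 6 in shNC3, and they lay toward the end of the gene. The widest region, 74.0 to 78.4 kb from the start, held 3321, 3382 and 2485 bp of peaks in shT2, against 404, 759 and 482 bp in shNC3. The next, at 81.6 to 83.8 kb, held 2016, 2013 and 1288 bp in shT2, against 368, 314 and 1656 bp in shNC3, where replicate 3 overlapped the shT2 values. Regions at 30.4 to 31.5 kb, 38.4 to 39.7 kb and 86.2 to 87.1 kb had a peak in all 3 shT2 samples and in no shNC3 sample. The closest patterns among the other genes were those of NUP153 at a distance of 0.705, LRPPRC at 0.710 and RNFT2 at 0.797, all much farther off than the neighbours of STMN2.

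**Figure D2:**
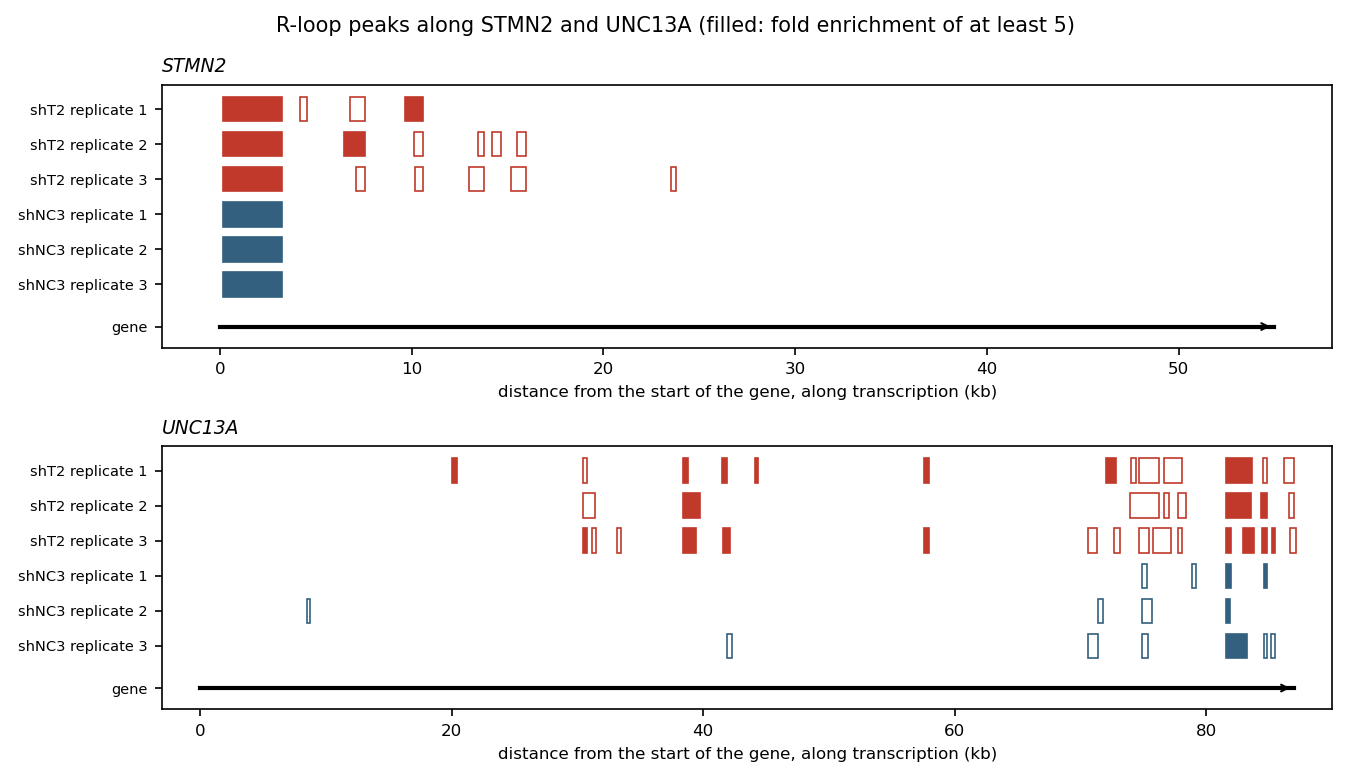
Peaks of each sample along STMN2 and UNC13A, as distance from the start of the gene in kb; filled boxes are peaks of at least 5-fold enrichment, open boxes weaker ones, shT2 in red above shNC3 in blue, and the black arrow is the gene. The STMN2 start peak has the same edges in all 6 samples and further peaks appear in shT2 alone, while the UNC13A peaks crowd beyond 70 kb in both hairpins and are more numerous in shT2.

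UNC13B, the relative of UNC13A that also primes vesicles (chromosome 9, 35162009 to 35405335), had 1 peak of 289 bp in shNC3 replicate 2, 20.3 kb from its start, and none elsewhere. SYT7, a calcium sensor of slow and asynchronous vesicle release (chromosome 11, 61513714 to 61588387), had 1 peak of 314 bp in shNC3 replicate 3. That peak lay 5.02 kb into the gene and within the overlapping lncRNA LOC105369331. The neighbours, ATP8B5P beyond UNC13B and LOC101927495 next to SYT7, fall within the 2 kb flanks. Neither peak reached 5-fold, both being at 3.6 to 3.8-fold. Neither gene met the filter of peaks in at least 3 samples. When genes covered in any sample were admitted, both were tested and neither was called.

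ELAVL3 and CELF5 encode neuronal RNA-binding proteins that regulate splicing and mRNA stability. ELAVL3 (chromosome 19, 11451326 to 11481046, minus strand) had the largest share of its length under peaks and was covered over 24.0, 22.6 and 24.4 scaled kb in shT2, against 18.2, 18.7 and 18.0 scaled kb in shNC3. The groups did not overlap, and the log2 difference was 0.36 (SE 0.05, limma adjusted p = 7e-04). Within 2 kb of its start the gene was covered in full, 4001 of 4001 bp, in all 6 samples. That stretch belongs to a 15359 bp domain reaching 11.7 kb upstream. In each of the 6 lists, the strongest enrichment among the peaks of the 10 genes was that of the peak over this start. It was 26.1 to 28.1-fold in the shT2 lists and 27.0 to 34.4-fold in the shNC3 lists. Where in that peak the enrichment was highest was not determined, and most of the peak lies upstream of the gene. The difference lay inside the gene. The body was covered over 17192, 17072 and 17366 bp in shT2, against 10643, 9286 and 9574 bp in shNC3. The widest peak lying wholly inside the gene measured 10860, 7856 and 8059 bp in shT2, against 5025, 3672 and 2686 bp in shNC3. PRKCSH, a glucosidase subunit gene that lies 358 bp beyond the end of ELAVL3, had 17.4 scaled kb in shT2 and 17.1 scaled kb in shNC3 on average (log2 difference 0.03, limma adjusted p = 0.703).

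CELF5 (chromosome 19, 3224661 to 3297076, plus strand) was covered over 24.7, 22.6 and 22.3 scaled kb in shT2, against 10.8, 9.33 and 10.7 scaled kb in shNC3. All shT2 samples had more than 2 times the length of any shNC3 sample, and the log2 difference was 1.14 (SE 0.07, limma adjusted p = 4.07e-05). The number of peaks was similar, 14, 12 and 11 in shT2 and 14, 14 and 12 in shNC3, so the peaks were wider rather than more numerous. From 40.7 to 47.4 kb, peaks held 6017, 6701 and 5621 bp in shT2, against 713, 698 and 329 bp in shNC3. From 63.6 to 71.5 kb, they held 7840, 7646 and 7922 bp in shT2, against 4511, 3646 and 3886 bp in shNC3. Between 23.9 and 40.7 kb no list held a peak. Of its 17 regions, none was present in all samples of 1 hairpin and absent from the other. A lncRNA, LOC105372244, overlaps the end of the gene from position 3296765.

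KALRN encodes kalirin, a guanine nucleotide exchange factor of dendritic spines, and at 693.0 kb is the longest of the genes (chromosome 3, 124033369 to 124726325, plus strand). It was covered over 2.83, 2.46 and 2.38 scaled kb in shT2, against 6.36, 4.11 and 7.01 scaled kb in shNC3. All shT2 samples were below all shNC3 samples, and the log2 difference was -1.02 (SE 0.19, limma adjusted p = 0.00376). The call held in all 15 alternative settings. Most of the difference was in 1 region around the start, -2.17 to 2.00 kb, with 1598, 1747 and 1614 bp in shT2, against 3860, 3080 and 4170 bp in shNC3. In the body, small regions at 332.3 and 335.7 kb had peaks in all 3 shNC3 samples and in 1 shT2 sample each. KALRN had no peak beyond 484.6 kb in any list. Within its span lie 8 short or noncoding genes: MIR5002, MIR6083, the pseudogenes RPL7P15, RNU6-143P and MEMO1P6, and the lncRNAs LOC105374077, LOC105374076 and LOC124906276.

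CAMK2B encodes the beta subunit of the calcium/calmodulin-dependent kinase CaMKII, which bundles actin at synapses (chromosome 7, 44217154 to 44326013, minus strand). It was covered over 1.99, 1.89 and 1.99 scaled kb in shT2, against 2.50, 3.42 and 2.89 scaled kb in shNC3. The groups did not overlap, and the log2 difference was -0.48 (SE 0.15, limma adjusted p = 0.0329). This call was close to the threshold: it passed in 6 of 15 alternative settings, with adjusted p between 0.0271 and 0.534. It was lost when any 1 of 5 libraries was left out, with adjusted p of 0.0736, 0.0834 and 0.0708 without shT2 replicates 1, 2 and 3 and of 0.0949 and 0.0769 without shNC3 replicates 2 and 3. One strong region at the far end, present in all 6 lists, lies at 108.4 to 114.45 kb, mostly beyond the gene's end at 108.9 kb. Within the gene's window this region, mostly in the flank, made up 95.3% of the length under peaks in shT2 and 74.4% in shNC3. The remaining peaks were short ones in the body, found in all shNC3 samples and in shT2 replicate 2. The lncRNA LOC124901621 lies inside CAMK2B, away from any peak.

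AGRN encodes agrin, the proteoglycan that organises the neuromuscular junction, and is also made by many non-neuronal cells (chromosome 1, 1020120 to 1056116, plus strand). Its coverage was 4.20, 4.85 and 3.99 scaled kb in shT2, against 16.8, 18.7 and 17.2 scaled kb in shNC3. No shT2 sample came near any shNC3 sample, and the log2 difference of -1.90 (SE 0.08, limma adjusted p = 1.25e-05) was the largest in size among the 8 tested genes. The start was bare in shT2: within 2 kb of it no shT2 list held a peak, while the shNC3 lists held 2106, 2138 and 2185 bp. Regions at -3.84 to -0.60 kb, 0.36 to 2.10 kb and 30.8 to 32.1 kb had peaks in every shNC3 sample and in none of shT2. Of the 15 AGRN regions, 11 were found in shNC3 alone and none in shT2 alone. Most of what shT2 retained lay in 2 stretches shared by all 6 lists, at 2.53 to 8.34 kb with 1958, 2400 and 2540 bp in shT2, against 5328, 5448 and 5779 bp in shNC3, and at 10.6 to 14.4 kb with 1486, 1757 and 1542 bp in shT2, against 3854, 3564 and 3633 bp in shNC3. Farther along, shT2 replicates 1 and 2 held 911 and 881 bp at 15.2 to 18.9 kb and replicate 2 held 309 bp at 22.5 to 23.1 kb. AGRN was lower together with the mesenchymal markers given above, and their part in its value was not tested.

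**Figure D3:**
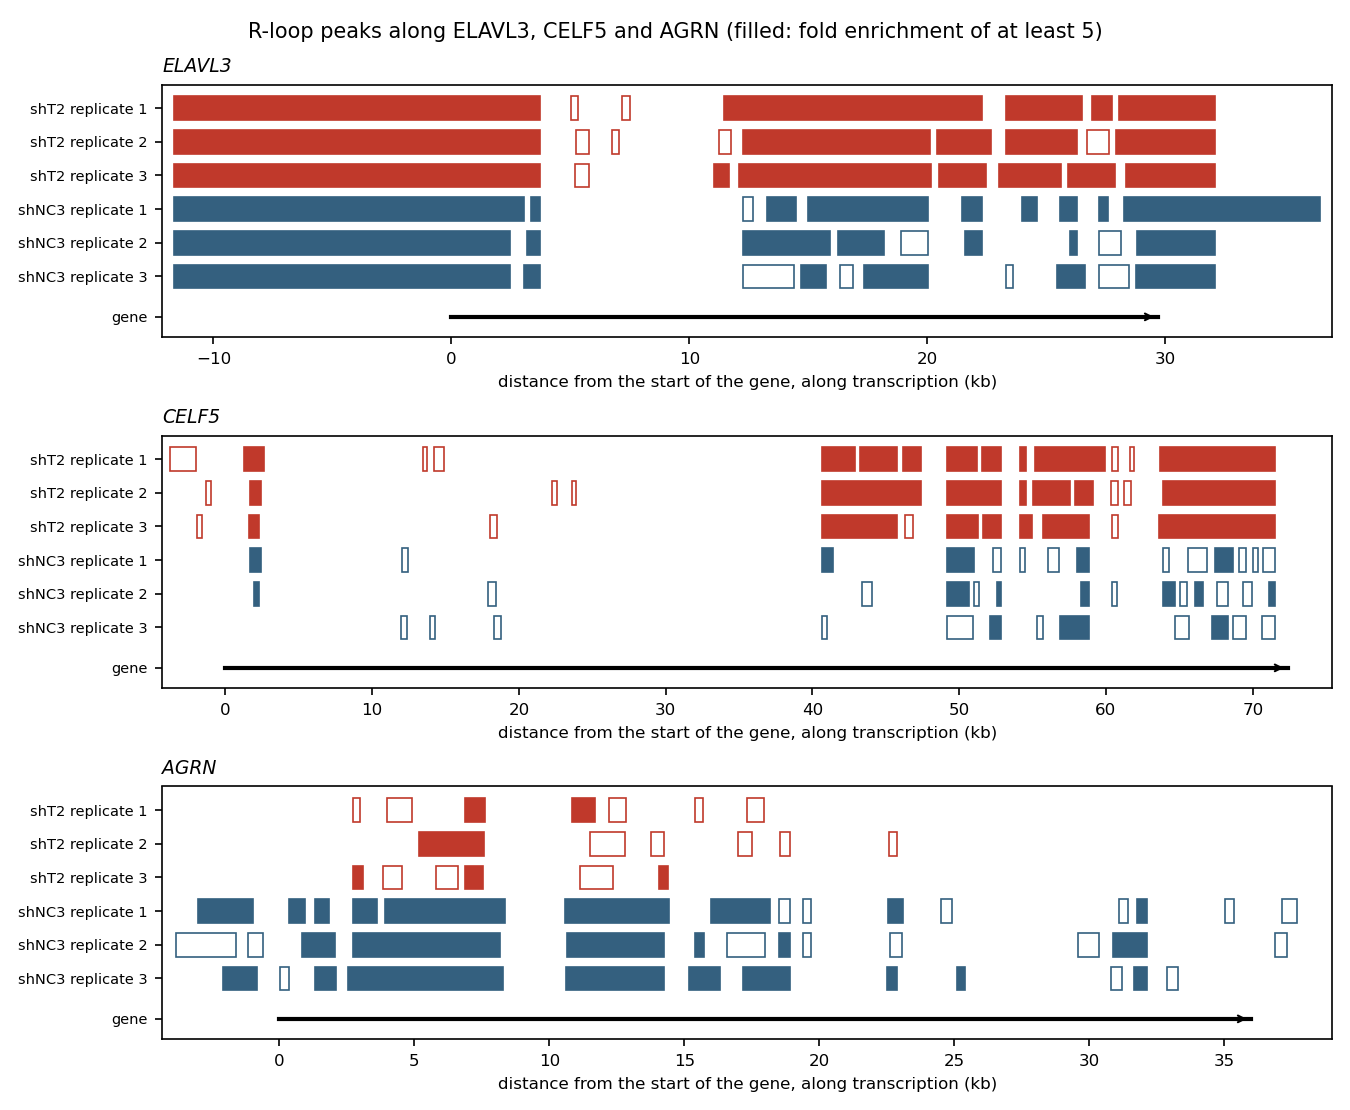
Peaks of each sample along ELAVL3, CELF5 and AGRN, as distance from the start of the gene in kb; filled boxes are peaks of at least 5-fold enrichment, shT2 in red above shNC3 in blue. ELAVL3 and CELF5 have longer runs inside the gene in shT2, whereas AGRN has no shT2 peak within 2 kb of its start and fewer, shorter shT2 peaks inside than in shNC3.

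CYFIP2 encodes a subunit of the WAVE complex that controls actin branching (chromosome 5, 157266123 to 157395594, plus strand). It was covered over 3.58, 3.78 and 3.18 scaled kb in shT2, against 4.40, 1.76 and 3.01 scaled kb in shNC3. The shT2 values lay inside the range of shNC3, and the log2 difference of 0.24 (SE 0.27, limma adjusted p = 0.462) did not pass. It hung on the shNC3 libraries: it was 0.51 (adjusted p = 0.0903) without shNC3 replicate 1 and -0.05 (adjusted p = 0.828) without shNC3 replicate 2. The total hides unlike places. At 43.0 to 45.8 kb, all 3 shT2 samples had a peak of 2851 bp with the same edges, against 712, 312 and 1280 bp in shNC3. Regions at 107.9 to 109.6 kb and at 123.0 to 124.1 kb were free of peaks in shT2. The shNC3 samples held 1624, 382 and 583 bp at 107.9 kb and 1093, 402 and 681 bp at 123.0 kb. Both lie where the lncRNA NIPAL4-DT overlaps the gene; FNDC9, a protein-coding gene inside its span, had no peak. These positions were picked after their values were seen and were not tested one by one.

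**Figure D4:**
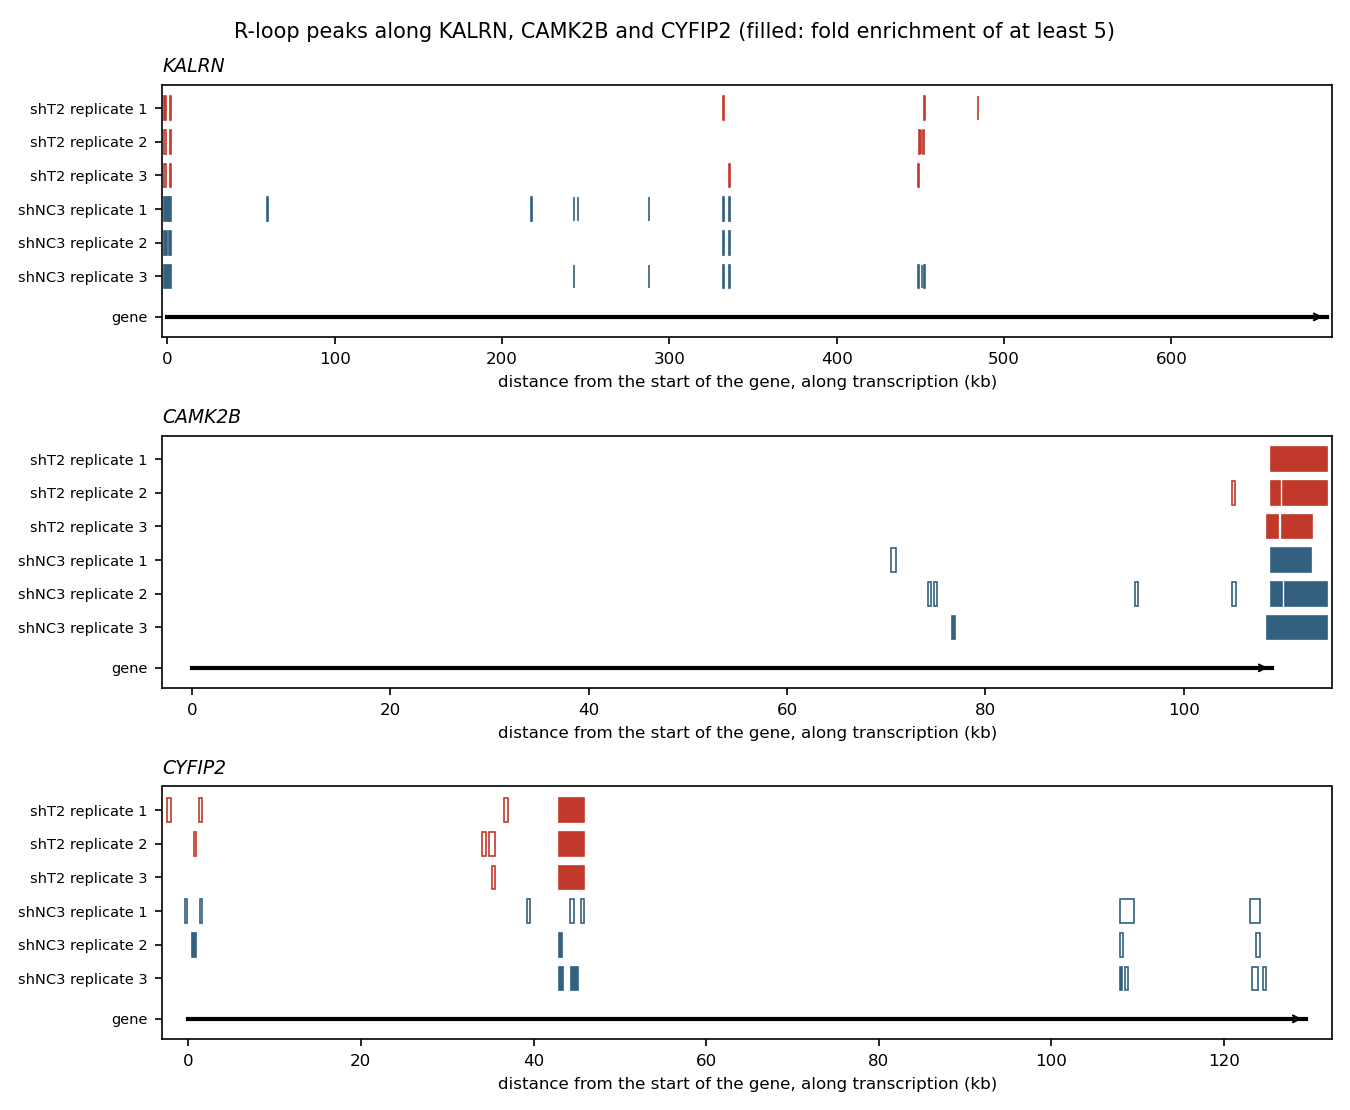
Peaks of each sample along KALRN, CAMK2B and CYFIP2, as distance from the start of the gene in kb; filled boxes are peaks of at least 5-fold enrichment, shT2 in red above shNC3 in blue. KALRN peaks are narrower around the start in shT2, CAMK2B carries its main region at the far end in all 6 samples, and CYFIP2 has a 2851 bp peak near 43 kb in every shT2 sample and later peaks in shNC3 alone.

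Near the gene ends, UNC13A and CELF5 were called higher, KALRN and AGRN lower, and 4 of the 8 tested genes did not pass. Of all 10577 genes tested there, 40.0% were called, 14.9% higher and 25.1% lower. AGRN had 0 scaled kb near its ends in all shT2 samples and 2.74 scaled kb on average in shNC3, so it passed the filter through shNC3 alone and had to differ; its call is not read here. That leaves 3 calls among 7 genes. The hairpins did not overlap for 5 of these 7, against 58.8% of all genes. STMN2 and ELAVL3 are among the 5, and their separation comes from the scaling. Unscaled, ELAVL3 had 4001 bp near its start in every sample. Near its end ELAVL3 had 3692 bp on average in shT2, against 3478 bp in shNC3. For KALRN the means were 1.41 scaled kb in shT2 and 3.73 scaled kb in shNC3 (log2 difference -1.14, SE 0.11, limma adjusted p = 0.000472). The higher calls at the ends were fragile. UNC13A, with 0.638 scaled kb in shT2 and 0.104 scaled kb in shNC3, had a log2 difference of 0.93 (limma adjusted p = 0.0430), and leaving out any 1 library except shNC3 replicate 3 raised its adjusted p to between 0.0620 and 0.156. CELF5, with 1.77 scaled kb in shT2 and 0.877 scaled kb in shNC3, had a log2 difference of 0.75 (limma adjusted p = 0.0355), and leaving out any 1 library except shNC3 replicate 1 raised it to between 0.0579 and 0.0946. With windows of 1 kb the CELF5 difference was -0.004 (adjusted p = 0.986). STMN2 had exactly 1835 bp near its start in every list, so its scaled log2 difference of -0.12 (adjusted p = 0.435) comes from the scaling alone.

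In the gene body, STMN2, UNC13A, ELAVL3 and CELF5 were called higher and AGRN lower, and KALRN, CAMK2B and CYFIP2 did not pass. The 5 calls among 8 genes stand against 46.8% of 8851 genes called, with 25.2% higher and 21.6% lower. The hairpins did not overlap for 6 of the 8, against 66.1% of all genes. The log2 differences of the called genes were 1.18 for STMN2 (limma adjusted p = 0.000743), 1.61 for UNC13A (0.00744), 0.63 for ELAVL3 (0.000521), 1.15 for CELF5 (0.000163) and -1.66 for AGRN (0.00016). The KALRN body differed by -0.56 (SE 0.39, adjusted p = 0.294). Leaving out shNC3 replicate 2, the sample with the shortest KALRN body, gave -0.99 (adjusted p = 0.0153). For CAMK2B the body differed by -1.03 (SE 0.40, adjusted p = 0.0816), from 0.088 scaled kb in shT2 and 0.771 scaled kb in shNC3, and at equal depth by -1.21 (adjusted p = 0.0385).

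The difference between places was tested directly, as the log2 body length minus the log2 length near the ends in each sample. Of the 8 genes, 3 were called, all with the body higher relative to the ends in shT2, against 23.1% of 10783 genes called, with 14.8% higher and 8.31% lower. STMN2 had a value of 1.31 (SE 0.12, limma adjusted p = 0.00279) and ELAVL3 one of 0.74 (SE 0.10, adjusted p = 0.00809). In both the body was higher in shT2 while the ends did not pass the test. The STMN2 value was 0.45 (adjusted p = 0.230) with peaks of at least 5-fold. The called AGRN value of 1.02 gives no order between places: with no peak near the ends in shT2 the pseudocount sets it, and it was 3.07 with a pseudocount of 100 bp and -0.53 (adjusted p = 0.113) with peaks of at least 5-fold. UNC13A, at 0.68, missed the threshold (adjusted p = 0.0568), and its sign turned with a pseudocount of 100 bp (-0.36, adjusted p = 0.582). At an unadjusted p below 0.05, limma gave 4 genes higher, UNC13A included, and none lower. Of all 10783 genes, 4036 were below that limit in either direction. The 4 include AGRN, whose value the pseudocount sets. The values of KALRN (0.59), CELF5 (0.39), CYFIP2 (0.62) and CAMK2B (-0.86) had adjusted p between 0.204 and 0.472. The median of the 8 genes was 0.65, beside 0.08 over all genes.

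**Figure D5:**
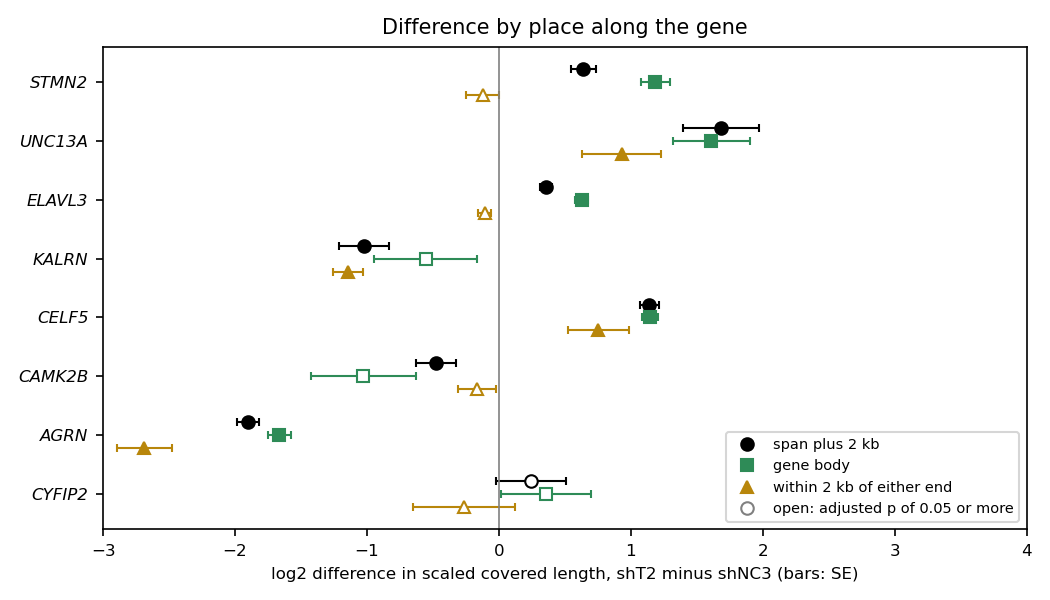
Log2 difference in scaled length under peaks, shT2 minus shNC3, with SE bars, for the 8 tested genes over the span plus 2 kb (circles), in the gene body (squares) and within 2 kb of either end (triangles); open symbols have an adjusted p of 0.05 or more. In STMN2 and ELAVL3 the body lies right of 0 with the ends near 0, at 1.18 against -0.12 and at 0.63 against -0.11, and AGRN lies left of -1.6 throughout, its triangle being set by the pseudocount since shT2 had no peak there.

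Over the 10 genes, the peaks merged into 97 regions. Of these, 15 were present in all 6 samples, 6 in every shT2 sample with no shNC3 sample, and 5 in every shNC3 sample with no shT2 sample. A single sample held 41 of them. Regions found in shT2 alone numbered 31 and those found in shNC3 alone 32. Regions were not counted in this way over all genes, so these counts do not set the members apart. The 6 steady shT2 regions were in UNC13A (3), STMN2 (2) and ELAVL3 (1), and the 5 steady shNC3 regions in AGRN (3) and CYFIP2 (2). How far samples shared covered bases differed by gene. In CELF5 the Jaccard index (shared over total bases) averaged 0.78 within shT2, 0.36 within shNC3 and 0.36 between the hairpins. In AGRN it averaged 0.30 within shT2, 0.65 within shNC3 and 0.27 between them. In each of these genes the samples shared more where the gene was covered more, as also in UNC13A, ELAVL3 and KALRN. STMN2 and CAMK2B went the other way. Their index was 0.62 within shT2 and 1.0 within shNC3 for STMN2, and 0.68 and 0.50 for CAMK2B.

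Among 18 other genes with TDP-43-dependent cryptic or skipped exons, 16 had peaks and were tested over the span. Of these, 9 were higher in shT2, 3 were lower and 4 did not pass, with a median log2 difference of 0.45. Of all genes tested over the span, 24.1% were called higher and 27.2% lower, with a median of -0.08. Among the 18 genes, the first to be named are those with small p-values. They include ICA1, an autoantigen of secretory vesicles, at 2.77 (limma adjusted p = 6.71e-06), the chromatin gene SETD5 at 0.95 and the remodelling factor gene RSF1 at 1.03. ICA1 had 15.8, 16.3 and 13.3 scaled kb in shT2, against 1.89, 1.79 and 1.65 scaled kb in shNC3. SLC24A3 and CEP290 had no peak in any list.

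Paralogs of the 10 genes, which share their families, were counted in the same way. Of 22, 18 were tested, and 10 were higher in shT2, 3 were lower and 5 did not pass, with a median log2 difference of 0.40. ELAVL4, another neuronal ELAV protein gene, had 17.1, 18.4 and 17.5 scaled kb in shT2, against 7.61, 8.61 and 6.47 scaled kb in shNC3 (log2 difference 1.18, limma adjusted p = 0.000116). STMN4 differed by 2.00, the fast vesicle calcium sensor gene SYT1 by 2.41 and STMN1, which regulates microtubules in dividing cells, by 0.57 (limma adjusted p between 0.000434 and 0.00156). ELAVL2, SYT4, CELF2 and CAMK2A had no peak in any list. No test compared these lists with the 10 genes.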

How the data were processed

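Narrow peaks were called for each of the 6 samples alone and deposited as 1 list each. Bowtie2 2.4.4, SAMtools, MACS2 2.2.6 and hg38 are named in the submitters' processing notes. The control behind the calls is not given in the sources used. The authors' lists give a score, a fold enrichment (a linear ratio), and the −log10 p-value and −log10 q-value of each peak; the deposited peaks reach a q-value of 0.01. The score was not used.

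From the peak positions, merged peaks on standard chromosomes were intersected with RefSeq GRCh38.p14 gene spans, and lengths were scaled to the mean total length. The fits to log2(scaled bp + 500) used limma 3.58.1 under R 4.3.3 (eBayes, trend and robust, no covariates; Benjamini-Hochberg over all genes, threshold 0.05), for genes with peaks in at least 3 of 6 samples; bodies were taken from genes over 4 kb. Log2 differences understate changes of short coverage. Code was tested on simulated data. Strands of STMN2, AGRN, ELAVL3 and SYT7 are textbook knowledge.

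Library depth was recovered from the authors' fold and −log10 p-value of each peak, with at least 99.85% of peaks matched within 0.001. Positions are 1-based. The members and gene lists were chosen with earlier results of these data known. Named genes were the members, genes overlapping their windows, up to 4 per further list with the smallest p, TARDBP and the 3 closest patterns for STMN2 and UNC13A; FN1 and some genes without peaks were named after their values were seen, and some genes that the rule names are not reported here. Alternatives changed the pseudocount (100 bp), scaling, peak set, filter, flank, window, replicate block and samples.

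Replicate numbers did not pair the samples: deviations of same-numbered samples from their group means correlated by -0.023, -0.064 and -0.008. No genome sequence or exon annotation was used.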

Additional observations from a re-analysis of the deposited data

How the results depend on the processing

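Over the span, 5 to 7 of the members were called in every alternative run, and UNC13A, ELAVL3, KALRN, CELF5 and AGRN passed in all of them; leaving out 1 library gave 6 to 7. CAMK2B was the call most often lost, including with no flank (adjusted p = 0.0893) and a 5 kb flank (0.0677), and STMN2 was lost with peaks of at least 5-fold enrichment. Near the ends, 4 genes were called, but 2 with a pseudocount of 100 bp, 2 without scaling and 1 to 3 with 1 library left out, the fewest without shNC3 replicate 2; AGRN no longer met the filter there with any 1 shNC3 library left out. In the body, 5 to 6 were called throughout, 5 to 6 with 1 library left out. For body against ends, 3 were called, but 1 with a replicate block and 1 with peaks of at least 5-fold; leaving out 1 library kept 3. Of the called values, the sign turned for AGRN body against ends with peaks of at least 5-fold (-0.53, adjusted p = 0.113) and for CELF5 near the ends with a 1 kb window (-0.004, adjusted p = 0.986). Of the values that were not called, it turned for UNC13A body against ends with a pseudocount of 100 bp (-0.36), for CYFIP2 without shNC3 replicate 2 (-0.05 over the span, -0.03 in the body) and for ELAVL3 near the ends without scaling and with peaks of at least 5-fold (both 0.04). The replicate numbers are shared by label only. The block left 6 members called over the span (CAMK2B adjusted p = 0.0754), 4 near the ends and 6 in the body, and AGRN and ELAVL3 had adjusted p of 0.0512 and 0.0519 for body against ends. Counts over all genes moved most with peaks of at least 5-fold: 3799 called over the span against 6042, 2385 near the ends against 4230 and 2425 in the body against 4142. A 1 kb window gave 2793 near the ends. Body against ends gave 1242 with the block and 1223 to 1575 with 1 library left out, against 2488. Without scaling, 1603 genes were higher and 1346 lower near the ends, against 1572 and 2658, and 2288 higher and 1221 lower in the body, against 2228 and 1914, with medians over all genes of 0.00 near the ends and 0.08 in the body. The causes of these shifts were not tested. Equal depth, added after the data were seen, gave 7 members over the span, 3 near the ends, 6 in the body and 3 for body against ends. Covered length depends on the calling threshold, so short or weak peaks are least certain where depth is lowest, in shNC3.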
